A study of Bos taurus with 6 samples.

Results

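The genes described here encode the DNA replication machinery, the enzymes, clamps and loaders that copy the genome before a cell divides. They were taken as the genes of the authors' table whose KEGG annotation names the DNA replication pathway, which were 34 of 17663 genes. The cells were bEFs, fibroblasts in primary culture from cattle fetuses aged 50 to 60 days, started from fetal tissue free of bone and viscera. FT cells came from 3 fetuses with the fat-1 transgenic genotype, in which an exogenous desaturase gene converts n-6 into n-3 polyunsaturated fatty acids, whereas 3 fetuses of the Luxi breed without it gave the WT cells. Each fetus gave 1 poly(A) RNA library (FT_1 to FT_3, WT_1 to WT_3), which makes n = 3 per group, and a p-value here measures the spread between these cultures. The breed of the FT fetuses, how they were produced and how often the cells had been passaged are not given in the sources used here. The transgene itself was not analysed here. The comparison asks how the level of each part of the replication machinery differed between FT and WT cells.

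Replication begins at origins, where a ring of MCM proteins is loaded and then unwinds the parental strands. DNA polymerase alpha with its primase lays down primers, RFC loads the PCNA clamp onto them, and polymerases delta and epsilon extend them while RPA covers the exposed single strands. The fragments of the lagging strand are then trimmed by nucleases and sealed by a ligase, and transcripts of many of these genes are known to rise as cells enter S phase.

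Library totals were 63366834 (FT_1), 48167642 (FT_2), 54204446 (FT_3), 69777641 (WT_1), 51310741 (WT_2) and 54271927 (WT_3) counts. The count of a member in a library ranged from 117 to 30464. FT_1 stood apart from the other FT libraries. The biological coefficient of variation, a measure of how far replicates differ after sampling noise is set aside, was 56.9% between FT_1 and FT_2 and 57.6% between FT_1 and FT_3, against 8.23% between FT_2 and FT_3 and 9.99% to 13.4% between WT libraries. The main counts and the values that hinge on FT_1 are therefore given with and without it.

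The labelled cell type, fetal fibroblast, was checked against fixed marker lists. The extraction protocol of the labels also speaks of an adipose type, and no adipocyte list was among those fixed, so that wording was not checked. Genes of the fibroblast list, led by vimentin (VIM), were present in every library, with a summed FPKM (fragments scaled by gene length and library total) of 6828 (FT_1), 17050 (FT_2) and 16780 (FT_3), and 17820, 17270 and 17360 in WT_1, WT_2 and WT_3. FT_1 was thus the lowest of the 6 libraries. The sum hides members that differed in opposite directions in FT_2 and FT_3. VIM had 1244, 3850 and 4171 (FT) against 7891, 8178 and 7312 (WT). DCN had 1803, 4092 and 3769 (FT) against 2299, 2054 and 2227 (WT), with FT_1 below every WT library. Neither was called with all 6 libraries (edgeR adjusted p = 0.0928 and 0.131). The only called member, PDGFRA, was higher, at 217.7, 166.4 and 140.6 (FT) against 93.5, 87 and 99.7 (WT). DCN was above VIM in FT_1 and FT_2. The 7 epithelial markers summed to 435.5 (FT_1), 16.1 (FT_2) and 15.8 (FT_3), and to 10.2, 7.92 and 14.2 in WT_1, WT_2 and WT_3. Keratin 5 (KRT5) was the highest of them in FT_1, and CDH1 was in every other library. CDH1 had 36.3, 7.11 and 8.41 (FT) against 10.03, 7.83 and 13.9 (WT). By edgeR it was not called with or without FT_1 (log2 fold change 0.85 and -0.28). KRT5, KRT14, KRT8 and KRT18 were at 0 in all WT libraries, as was EPCAM, which had an FPKM of 0.57 in FT_1 and 0 in FT_2 and FT_3. KRT5 itself stood at an FPKM of 171.5, 2.57 and 1.63 in the FT libraries. FT_1 was the highest library for 6 of these markers. The other, CLDN4, had 3.65, 3.39 and 3.82 (FT) against 0.20, 0.09 and 0.33 (WT), and was alike in all FT libraries.

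The smooth muscle list, which holds the actin gene ACTA2, summed to 2483, 3755 and 3617 in FT_1, FT_2 and FT_3. It summed to 1095, 1076 and 1201 in WT_1, WT_2 and WT_3, and 5 of its 6 genes were called higher in FT cells. MYOCD of this list was at 0 in WT_2 and WT_3. The mesothelial list summed to 199.7, 45.03 and 46.3 in the FT libraries and 2.32, 3.48 and 3.34 in the WT libraries, nearly all of it from mesothelin (MSLN), and its marker WT1 was at 0 in all FT libraries. In any library, the endothelial list, which holds PECAM1, summed to at most 1.52, and the leukocyte list, led by CD14, to at most 8.06. The chondrogenic list summed to at most 2.29 and the myogenic list to at most 5.77 in any library. In WT cells, ACAN was above SOX9 in the chondrogenic list and MYF5 was above DES in the myogenic list. The list of glial and neural markers, led by S100B, summed to 14.95, 7.06 and 5.83 (FT) against 11.9, 13.2 and 13.1 (WT), and HBA, the measured erythroid gene, was at or near 0 in every library. Of these lists, 1 of 3 leukocyte, 1 of 2 chondrogenic and 1 of 2 neural genes tested were called lower, and 1 of 10 fibroblast, 1 of 6 epithelial, 1 of 2 myogenic and 1 of 2 mesothelial genes were called higher. Without FT_1, 5 fibroblast genes were higher and 1 (VIM) lower, 5 epithelial and 6 smooth muscle genes were higher, and 1 endothelial, 2 leukocyte, 1 myogenic (MYF5), 1 chondrogenic and 2 neural genes were lower, while 1 myogenic (DES) and 1 mesothelial gene (MSLN) were higher. Of all genes tested, 18.9% were lower and 20% higher with all libraries, and 31.5% and 30.6% without FT_1. The part of the cell mixture in the results for replication genes was not tested.

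Most of the replication machinery was lower in FT cells. With edgeR's quasi-likelihood test on the counts and a Benjamini-Hochberg adjusted p under 0.05 over all 13482 genes tested, 22 of the 34 members were called lower (64.7%), where 18.9% of all genes tested were, and 1 was called higher (2.94%), where 20% of all genes were. All 34 members passed the filter on low counts. The median log2 fold change, FT minus WT, was -0.78 over the members and 0.03 over all genes tested, so that the median member stood at 58.1% of its WT level. In bulk RNA, fewer cells in S phase and less of these transcripts per cell cannot be told apart. The summed FPKM of the members was 454 (FT_1), 509.8 (FT_2) and 491.8 (FT_3), and it was 831.7 in WT_1, 963.6 in WT_2 and 818.3 in WT_3. All FT libraries were below all WT libraries.

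The same direction was found without FT_1. Leaving it out gave 24 members lower and 3 higher, among them all 22 and the 1 called with it, where 31.5% of all genes were lower and 30.6% higher, and the members' median was -0.70. The number of calls fell without any of the WT libraries, and it was lowest without WT_2. Without WT_2, 13 members were lower (38.2%), with 11.2% of all genes lower and a members' median of -0.68. Without WT_1, 15 were lower (44.1%, with 10.9% of all genes), and without WT_3, 16 were (47.1%, with 12.3% of all genes). In every fit with 1 library left out, 12 members were called lower. On counts scaled to the library total with TMM factors (CPM), the FT range lay wholly below the WT range for 25 members (73.5%), where 29.4% of all genes tested were, and wholly above it for 2, where 28.3% were. With the cutoff used in the study, an absolute log2 fold change over 1 at an unadjusted p under 0.05, edgeR called 9 members lower (26.5%), where 8.83% of all genes were. That threshold gave 0 members higher, where 10.1% of all genes were, while 2 members were higher at an unadjusted p under 0.05 alone. DESeq2 and limma also gave 0 at this threshold.

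**Figure D1:**
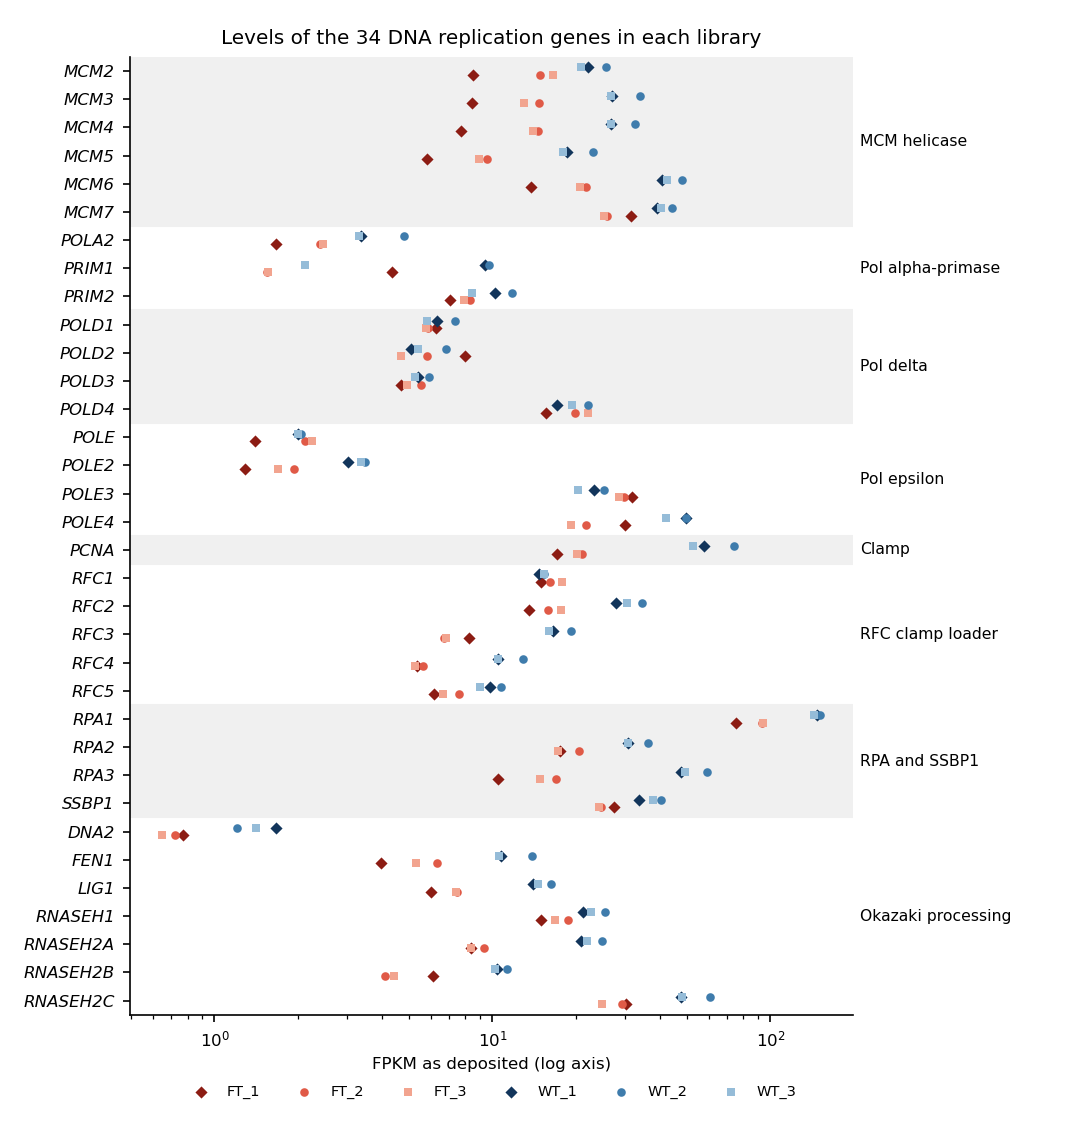
FPKM of each of the 34 DNA replication genes (log axis) in the 3 FT libraries (red) and the 3 WT libraries (blue), grouped by complex, 1 point per library. The red points lie left of the blue points for every MCM, PCNA, RPA and Okazaki gene, those of the Pol delta genes, PRIM1, POLE and RFC1 overlap with the blue, and those of POLE3 lie to the right.

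The MCM genes encode the ring of 6 subunits that unwinds DNA. Of these, 5 were called lower in FT cells, and the median log2 fold change over the 6 was -1.07, or -0.85 without FT_1. MCM6, with the smallest p of the helicase (ENSBTAG00000015172, chromosome 2, 61489617 to 61524285 in the authors' table), had an FPKM of 13.8, 21.7 and 20.7 in FT_1, FT_2 and FT_3 and 40.6, 47.99 and 42.6 in WT_1, WT_2 and WT_3. All FT values were below all WT values, with FT_1 lowest. Its log2 fold change was -1.06 (standard error 0.20, edgeR adjusted p = 0.00894).

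MCM5 had an FPKM of 5.81, 9.57 and 8.95 (FT) against 18.6, 23.1 and 18.01 (WT), at log2 fold change -1.13 (standard error 0.22, edgeR adjusted p = 0.0107). MCM3 had 8.42, 14.7 and 12.98 (FT) against 27, 33.8 and 26.8 (WT), at log2 fold change -1.12 (standard error 0.23, edgeR adjusted p = 0.0137). MCM4 had 7.74, 14.5 and 14.04 (FT) against 26.6, 32.5 and 26.8 (WT), at log2 fold change -1.08 (standard error 0.26, edgeR adjusted p = 0.023). These 3 subunits shared a pattern in which FT_1 was lowest, WT_2 was highest and the groups did not overlap. MCM7 had 31.6, 25.8 and 25.1 (FT) against 39.1, 44.2 and 40.3 (WT), at log2 fold change -0.43 (standard error 0.11, edgeR adjusted p = 0.0235). Here the groups were also separate, but FT_1 was the highest FT library.

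MCM2 was not called by edgeR or DESeq2 with all libraries, while limma on unscaled FPKM called it lower (log2 fold change -0.78, limma adjusted p = 0.0413). In edgeR its log2 fold change was -0.62 (standard error 0.26, edgeR adjusted p = 0.114), and its FPKM of 8.49 to 16.5 in FT cells lay below the 20.9 to 25.7 of WT cells. Without FT_1 it was called lower, at a log2 fold change of -0.37 (standard error 0.09). On CPM, FT_1 stood at 0.526 to 0.633 of the mean of FT_2 and FT_3 for MCM2 to MCM6 and at 1.21 for MCM7. MCM7 was counted over an interval that also holds AP4M1 on the other strand and a cluster of microRNA genes on its own. AP4M1 was called higher in FT cells (log2 fold change 0.58), and how shared reads were assigned is not given in the sources used here. The calls of MCM5 and MCM6 held with any library left out. MCM3 lost its call without WT_2 (adjusted p from 3.1e-05 to 0.0559 over the libraries left out), MCM4 without any of the WT libraries (1.91e-05 to 0.0841) and MCM7 without any library but FT_1 (8.53e-05 to 0.0855).

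Polymerase alpha with its primase makes the primers. None of its 3 measured subunits was called by edgeR with TMM scaling, and 1 (POLA2) had an unadjusted p under 0.05. DESeq2, limma on unscaled FPKM and edgeR with library totals alone called POLA2 lower, while limma on scaled FPKM did not. The catalytic subunit POLA1 was not analysed here. POLA2, the accessory subunit (ENSBTAG00000011455, chromosome 29, 43477495 to 43504482), had an FPKM of 1.66, 2.40 and 2.46 (FT) against 3.37, 4.79 and 3.30 (WT). The groups did not overlap. Its log2 fold change was -0.65 (standard error 0.24, edgeR adjusted p = 0.0765), and without FT_1 it was called at -0.48 (standard error 0.17).

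PRIM1, the catalytic subunit of primase, had an FPKM of 4.34, 1.55 and 1.56 in FT_1, FT_2 and FT_3 and 9.39, 9.76 and 2.12 in WT_1, WT_2 and WT_3. WT_1 and WT_2 were high, WT_3 was near FT_2 and FT_3, and FT_1 lay between, so that the groups overlapped. This spread left a log2 fold change of -1.36 with a standard error of 0.69 (edgeR adjusted p = 0.169). The log2 fold change was -2.01 (standard error 0.84) without FT_1 and -1.06 without WT_2, and PRIM1 was called in neither fit. PRIM1 overlaps NACA on the same strand, which had an FPKM of 95.4 to 125.5 in FT cells and 150.7 to 173.2 in WT cells, so the reads of PRIM1 carry the uncertainty of their assignment. PRIM2, the large primase subunit, had a log2 fold change of -0.23 (standard error 0.15). This ranged from -0.34 to -0.11 with 1 library left out, and PRIM2 was called in none of these fits.

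The subunit genes of the replicative polymerases were called to different extents, and the polymerases were not tested against each other. Polymerase delta extends the lagging strand, and none of its 4 subunit genes was called by edgeR, at an unadjusted p under 0.05 either, nor by DESeq2 or limma. Their log2 fold changes were 0.03 to 0.25 with TMM scaling and were slightly below 0 for POLD1 (-0.11), POLD3 (-0.12) and POLD4 (-0.02) with library totals alone. With a trend on gene length removed POLD4 was at 0.45, against 0.14 with TMM scaling, and was not called. POLD2, the subunit with the smallest p (ENSBTAG00000012241, chromosome 4, 77190290 to 77200482), had an FPKM of 7.99, 5.84 and 4.67 (FT) against 5.10, 6.78 and 5.41 (WT). FT_1 was the highest library and FT_3 the lowest, so the groups overlapped. Its log2 fold change was 0.25 (standard error 0.21) with FT_1 and 0.04 (standard error 0.14) without it. The summed FPKM of the subunits was 34.5, 37.03 and 37.5 (FT) against 33.9, 42.2 and 35.8 (WT), so the groups overlapped in the sum as well.

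Polymerase epsilon, which extends the leading strand, held members that moved in opposite directions, with 2 lower and 1 higher. POLE3, a small histone-fold subunit (ENSBTAG00000000252, chromosome 8, 102655928 to 102658552), had an FPKM of 31.8, 29.7 and 28.5 (FT) against 23.2, 25.2 and 20.3 (WT). Every FT library was above every WT library. The rise of 0.55 in log2 (standard error 0.10, edgeR adjusted p = 0.00808) was the only call in this direction that edgeR made among the members with all 6 libraries. POLE4, the histone-fold partner of POLE3, had 29.9, 21.7 and 19.1 (FT) against 49.5, 49.5 and 41.97 (WT). Its groups were separate in the other direction, at a log2 fold change of -0.84 (standard error 0.18, edgeR adjusted p = 0.0133), and its call was lost without WT_1 or without WT_2 (adjusted p from 1.45e-05 to 0.0575 over the libraries left out). With a trend on gene length removed POLE4 was still called, at -0.54. POLE2, the accessory subunit, was called at the same log2 fold change of -0.84 from low levels, at most 3.48 FPKM, and lost its call without FT_3 or any of the WT libraries (adjusted p 0.00669 to 0.103). POLE, the catalytic subunit, had a log2 fold change of 0.10 (standard error 0.20) that was -0.05 with library totals alone and -0.18 with a trend on gene length removed. Without FT_1 it was called higher, at 0.30 (standard error 0.10).

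**Figure D2:**
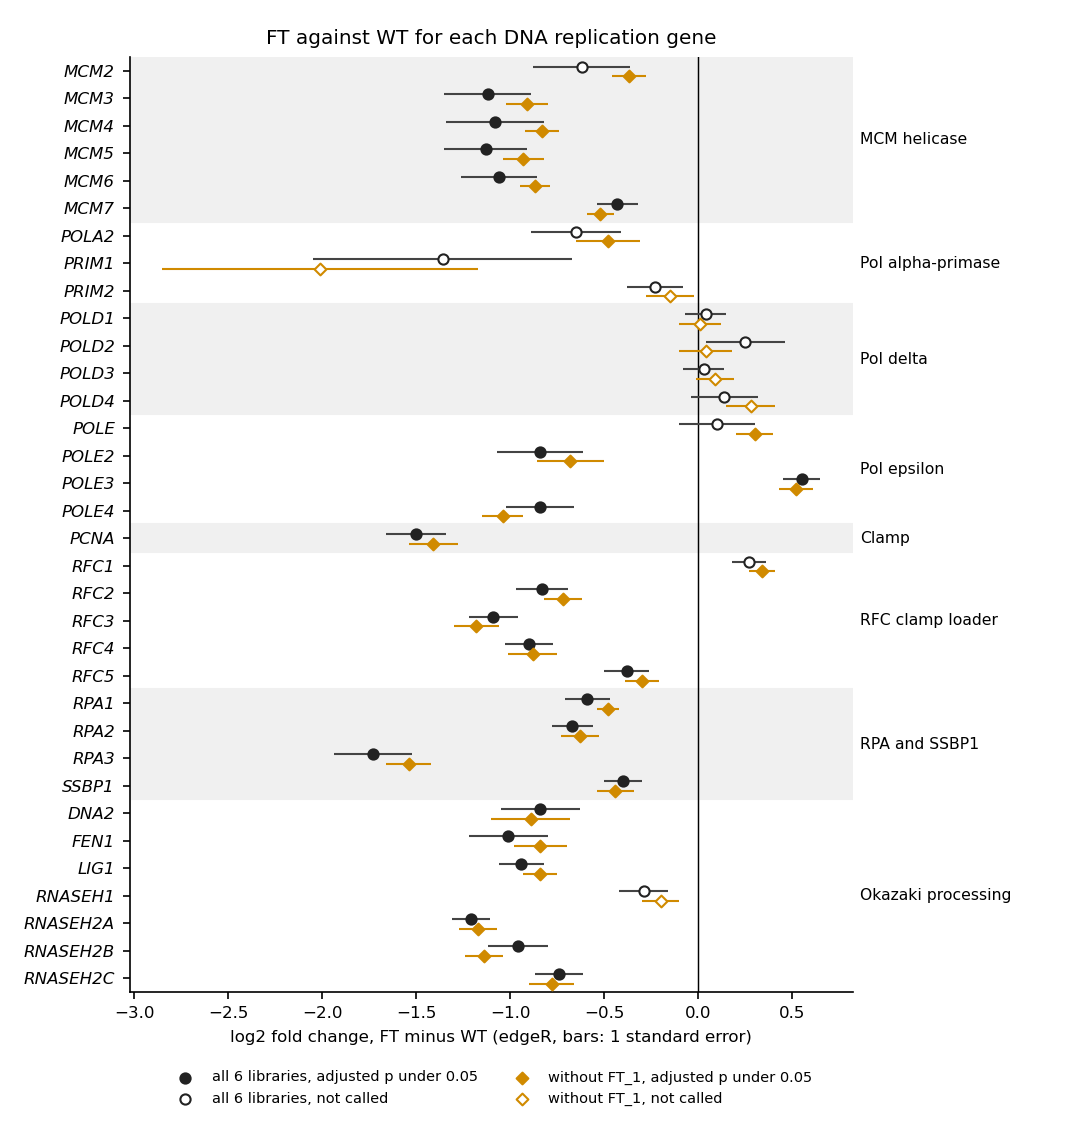
log2 fold change, FT minus WT, of each DNA replication gene from edgeR with 1 standard error, for all 6 libraries (black circles) and without FT_1 (orange diamonds), where filled symbols have an adjusted p under 0.05. The members lie between -1.73 (RPA3) and 0.55 (POLE3) with all libraries, and 24 are called lower without FT_1 against 22 with it.

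PCNA is the sliding clamp that holds polymerases on DNA. PCNA (ENSBTAG00000006065, chromosome 13, 47430406 to 47436478) had an FPKM of 17.1, 21.1 and 20.1 in FT_1, FT_2 and FT_3 and 57.5, 73.96 and 52.9 in WT_1, WT_2 and WT_3. The FT libraries lay close together and far below the lowest WT library. The log2 fold change was -1.50 (standard error 0.16, edgeR adjusted p = 0.00162), which put FT cells at 35.3% of the WT level, and it was -1.41 without FT_1.

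RFC opens PCNA and loads it at primer ends. By edgeR its 4 small subunits were called lower, and its large subunit was not called. RFC3 (ENSBTAG00000010787, chromosome 12, 27378900 to 27396278) had an FPKM of 8.27, 6.70 and 6.80 (FT) against 16.6, 19.2 and 15.96 (WT). The groups did not overlap, and the log2 fold change was -1.09 (standard error 0.13, edgeR adjusted p = 0.00208). RFC4 had 5.37, 5.63 and 5.28 (FT) against 10.5, 12.9 and 10.5 (WT), at log2 fold change -0.90 (standard error 0.13, edgeR adjusted p = 0.00347). RFC2 had 13.5, 15.8 and 17.6 (FT) against 27.9, 34.6 and 30.6 (WT), at log2 fold change -0.83 (standard error 0.14, edgeR adjusted p = 0.00641). Both had every FT library below every WT library, and RFC2, RFC3 and RFC4 kept their calls with any library left out.

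RFC5 was lower by less, at a log2 fold change of -0.38 (standard error 0.12, edgeR adjusted p = 0.0462). Its call was lost without FT_3 or any of the WT libraries (adjusted p 0.0162 to 0.144), with no filter on low counts and in limma on scaled FPKM, and RFC5 overlaps WSB2 on the other strand, which was called higher in FT cells. RFC1, the large subunit, had an FPKM of 15.01, 16.1 and 17.9 (FT) against 14.7, 15.3 and 15.3 (WT). On FPKM, FT_1 fell within the WT range, and FT_2 and FT_3 were above it. On CPM, RFC1 was with POLE3 one of the 2 members whose FT range lay above the WT range, at 65.34, 71.73 and 80.42 (FT) against 58.29, 60.72 and 61.13 (WT). The log2 fold change was 0.27 (standard error 0.09, edgeR adjusted p = 0.0655), and without FT_1 it was called higher at 0.34 (standard error 0.07). DESeq2 called RFC1 higher with all 6 libraries, also at 0.27 (DESeq2 adjusted p = 0.0414), and limma did not call it. RFC1 was at 0.15 with a trend on gene length removed, 0.12 with library totals alone and 0.10 in limma on unscaled FPKM. None of these fits called it.

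RPA binds single-stranded DNA as a complex of large, middle and small subunits. All 3 were called lower, and RPA4 was not analysed here. RPA3, the small subunit (ENSBTAG00000013168, chromosome 4, 15692488 to 15695690), had an FPKM of 10.5, 16.9 and 14.9 (FT) against 47.6, 59.4 and 49.4 (WT). FT_1 was lowest, and no FT library came near the WT range. The log2 fold change, -1.73 (standard error 0.21, edgeR adjusted p = 0.00228), was the largest fall among the members in this fit, and it was -1.54 without FT_1. With a trend on gene length removed it was -1.41, where PCNA was at -1.47.

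RPA2, the middle subunit, had an FPKM of 17.5, 20.4 and 17.2 (FT) against 30.8, 36.4 and 30.7 (WT), at log2 fold change -0.67 (standard error 0.11, edgeR adjusted p = 0.00648). RPA1, the large subunit that makes most contacts with DNA, had 74.97, 93.3 and 94.3 (FT) against 147, 151 and 144 (WT), at log2 fold change -0.59 (standard error 0.12, edgeR adjusted p = 0.0123). RPA1 had the highest FPKM of the 34 members in every library. SSBP1, the single-stranded DNA binding protein of mitochondria, had 27.3, 24.6 and 24.2 (FT) against 33.6, 40.5 and 37.9 (WT), at log2 fold change -0.40 (standard error 0.10, edgeR adjusted p = 0.0227). The groups did not overlap for these 3 genes. RPA1 lost its call without WT_1 or without WT_2 (adjusted p 4.51e-05 to 0.0537 over the libraries left out), and SSBP1 lost it without FT_2, FT_3, WT_2 or WT_3 (0.00222 to 0.0776) and with a trend on gene length removed.

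The last group trims and joins Okazaki fragments and removes RNA from DNA, and 6 of its 7 members were called lower, with a median log2 fold change of -0.94. RNASEH2A, the catalytic subunit of ribonuclease H2 (ENSBTAG00000009661, chromosome 7, 12722227 to 12730155), had an FPKM of 8.39, 9.31 and 8.38 (FT) against 20.8, 24.7 and 21.8 (WT). The FT libraries were nearly equal and all below the WT libraries. Its log2 fold change of -1.21 (standard error 0.10) had the smallest p of the 34 members (edgeR adjusted p = 9.18e-04).

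RNASEH2B, an accessory subunit, had 6.13, 4.10 and 4.44 (FT) against 10.4, 11.3 and 10.2 (WT), at log2 fold change -0.96 (standard error 0.16, edgeR adjusted p = 0.00622). RNASEH2C, the other accessory subunit, had 30.1, 29.1 and 24.7 (FT) against 47.7, 60.6 and 48.3 (WT), at log2 fold change -0.74 (standard error 0.13, edgeR adjusted p = 0.00741). With a trend on gene length removed RNASEH2C was still called, at -0.46. All subunits of ribonuclease H2 kept their calls with any library left out. RNASEH1, which acts alone, was not called by edgeR (log2 fold change -0.29, standard error 0.13, edgeR adjusted p = 0.114), although its FT values of 14.99 to 18.7 lay below the WT values of 21.2 to 25.4. It was called lower by limma on unscaled FPKM (limma adjusted p = 0.0226) and by edgeR with library totals alone (edgeR adjusted p = 0.0297). With a trend on gene length removed RNASEH1 was at -0.15 and not called, and limma on scaled FPKM did not call it either, at -0.28.

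LIG1, the ligase that seals the fragments, had an FPKM of 6.02, 7.43 and 7.40 (FT) against 13.98, 16.2 and 14.5 (WT), at log2 fold change -0.94 (standard error 0.12, edgeR adjusted p = 0.0029). FEN1, the nuclease that cuts the displaced flap, had 3.96, 6.31 and 5.30 (FT) against 10.8, 13.8 and 10.6 (WT), at log2 fold change -1.01 (standard error 0.21, edgeR adjusted p = 0.0134). FT_1 was lowest for both, and the groups were separate. FEN1 lost its call without WT_2 (adjusted p 3.8e-04 to 0.0553 over the libraries left out). DNA2, a nuclease and helicase that shortens long flaps, had the lowest level of the members, 0.65 to 0.77 FPKM in FT cells and 1.21 to 1.67 in WT cells. DNA2, at log2 fold change -0.84 (standard error 0.21, edgeR adjusted p = 0.0236), lost its call without FT_2, FT_3, WT_1 or WT_3 (adjusted p 0.00383 to 0.102).

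**Figure D3:**
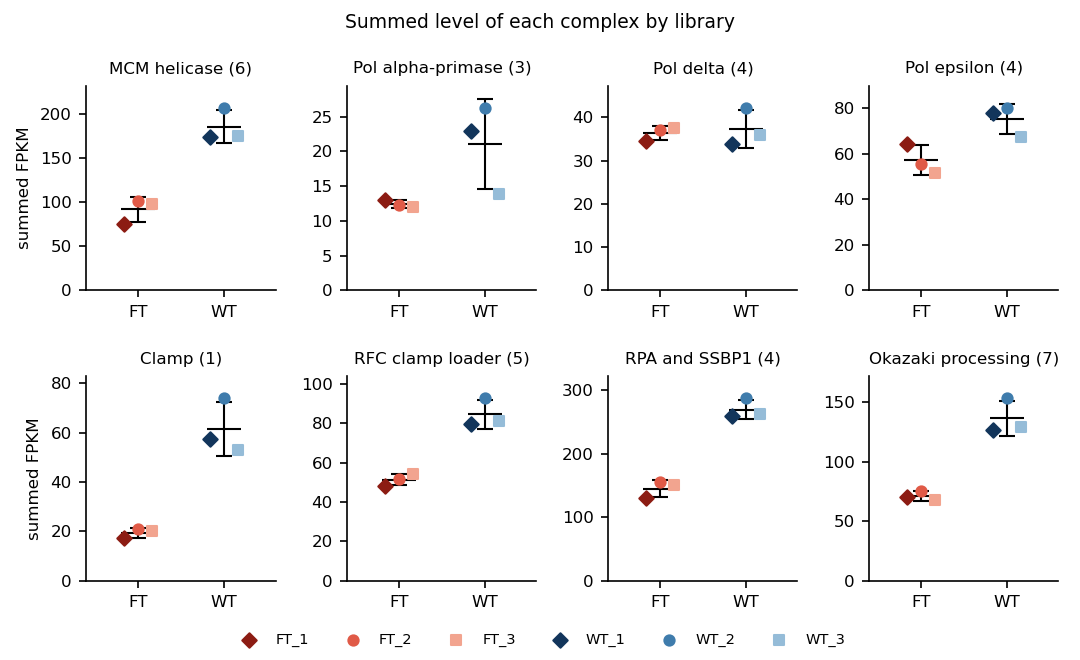
Summed FPKM of the members of each complex (number of genes in brackets) in each FT and WT library, with the group mean and SD (n = 3) as bars, on axes that start at 0. The FPKM sums do not overlap between groups except for Pol delta, and the MCM sum is 91.8 in FT and 186 in WT cells.

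Subunit sums (mean ± SD, n = 3, FT first) were 91.8 ± 13.9 and 186 ± 18.8 FPKM for the MCM helicase, and the Okazaki group had 71.3 ± 4.06 and 136 ± 14.7. RFC had 51.5 ± 2.93 and 84.6 ± 7.19, and RPA with SSBP1 had 145 ± 13.2 and 270 ± 15.5. These sums were separate between the groups. Summed as CPM, the FT mean was 55.4% of WT for the MCM helicase and 54.8% for the Okazaki group. It was 78.2% for RFC and 64.4% for RPA with SSBP1, so the size of the difference depends on the measure. Polymerase delta had 36.4 ± 1.61 and 37.3 ± 4.35, a difference smaller than either SD, and summed as CPM, which is not scaled by gene length, its FT mean was the higher, at 108% of WT. Polymerase epsilon had 57.1 ± 6.6 and 75.2 ± 6.7, where POLE3 and POLE4 made up most of the sum in both groups. In CPM, polymerase epsilon instead had 99.62, 98.33 and 95.59 (FT) against 94.76, 99.64 and 85.24 (WT), so that the groups overlapped and the FT mean was the higher, at 105% of WT. The primase group had 12.4 ± 0.578 and 21.1 ± 6.43, and its wide WT spread came from PRIM1 in WT_3.

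Because the subunits of a complex did not move alike, ratios between members of the same library were also taken, which do not depend on how libraries are scaled. These ratios were chosen after the values had been seen and were not tested. The mean FPKM of RFC2 to RFC5 over that of RFC1 was 0.555, 0.554 and 0.508 in FT_1, FT_2 and FT_3 and 1.10, 1.27 and 1.08 in WT_1, WT_2 and WT_3. PCNA over the mean of POLD1 to POLD4 was 1.99, 2.27 and 2.14 (FT) against 6.79, 7.01 and 5.91 (WT). The small subunits of the loader and the clamp were thus lower in FT cells relative to RFC1 and to polymerase delta in every library. POLE4 over POLE3 was 0.941, 0.728 and 0.67 (FT) against 2.13, 1.97 and 2.07 (WT), and RPA3 over RPA1 was 0.14, 0.181 and 0.158 against 0.323, 0.392 and 0.343. Such ratios are not corrected for the trend on gene length. With it removed, the edgeR log2 fold changes were -0.54 for POLE4 and 0.59 for POLE3, against -0.84 and 0.55 with TMM scaling alone. Those of RPA3 and RPA1 were -1.41 and -0.63, against -1.73 and -0.59, so the gap within each pair was smaller. The mean of MCM2 to MCM6 over MCM7 was 0.28 (FT_1), 0.585 (FT_2) and 0.582 (FT_3), and 0.689, 0.738 and 0.671 in WT cells. Here FT_1 stood apart from the other FT libraries more than these did from WT cells.

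**Figure D4:**
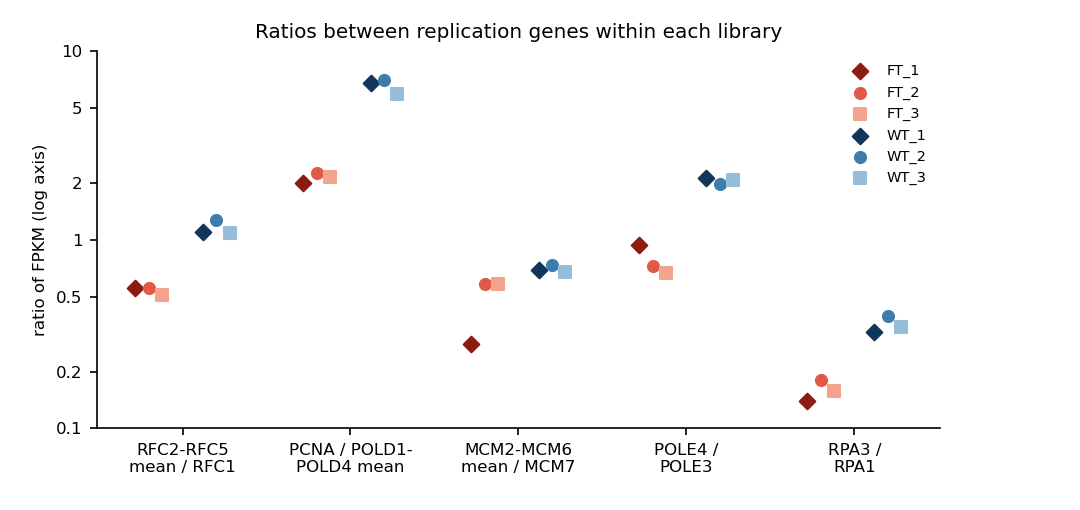
Ratios of FPKM (log axis) between replication genes of the same library, 1 point per FT (red) and WT (blue) library. FT libraries lie below WT libraries in each ratio, and FT_1 is apart from FT_2 and FT_3 in the ratio of MCM2 to MCM6 over MCM7 (0.28 against 0.585 and 0.582).

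The libraries of a group also differed in a common way over the members. FT_1 was the lowest FT library for 23 of the 34 members (67.6%), on CPM, where it was lowest for 44.3% of all genes tested, and it was the highest for the other 11. WT_2 was the highest WT library for 32 members (94.1%), where it was highest for 36.6% of all genes tested. The members lay on 21 chromosomes. Across the 34 members, which are not independent replicates, the log2 fold change had a Spearman's rho of 0.23 with relative gene length and -0.141 with mean FPKM, and with length it was 0.189 over the 11755 tested genes that had a length.

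Many members also serve in DNA repair, and the repair pathways of KEGG were counted with and without them, using all 6 libraries. Of the 18 members in nucleotide excision repair, 11 were lower and 1 was higher, and of the 24 other tested genes of that pathway 8 were lower and 3 were higher, with medians of -0.63 and -0.21, while 18.9% of all genes tested were lower. In mismatch repair, 10 of 15 members and 5 of 7 other genes were lower, with medians of -0.59 and -0.68. In base excision repair, 5 of 11 members and 5 of 21 others were lower, and 1 and 3 were higher, with medians of 0.03 and 0. The 14 members in none of the 5 repair pathways counted, which include the MCM and ribonuclease H genes, had 9 lower and a median of -0.90. For homologous recombination the counts were 4 of 8 members and 6 of 32 others lower, and for the Fanconi anemia pathway they were 3 of 3 and 14 of 47, with 5 and 9 of the others higher. The medians were -0.18 for members and -0.01 for others in homologous recombination, and -0.67 and -0.11 in the Fanconi anemia pathway. In the cell cycle pathway, which shares the MCM genes and PCNA, 6 of 7 members and 41 of 109 other genes were lower, and 13 of the others were higher, with medians of -1.08 and -0.26.

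Lists of other genes of replication were counted in the same fit, in which 18.9% of all genes tested were lower and 20% higher, or 31.5% and 30.6% without FT_1. Origin licensing, which loads the MCM ring, had 2 of 12 genes lower and 1 higher. ORC1, a subunit of the origin recognition complex, had an FPKM of 0.71, 1.31 and 1.05 (FT) against 2.66, 2.79 and 2.28 (WT), at log2 fold change -1.16 (standard error 0.27, edgeR adjusted p = 0.0181). MCM8, a helicase related to the MCM ring, had 0.61, 0.87 and 0.80 (FT) against 1.73, 1.59 and 1.37 (WT), at log2 fold change -0.88 (standard error 0.23, edgeR adjusted p = 0.0292). MCMBP, which binds MCM subunits, had 27.8, 26.01 and 24.4 (FT) against 22.5, 22.2 and 21.2 (WT), at log2 fold change 0.41 (standard error 0.07, edgeR adjusted p = 0.00756). Groups did not overlap for these genes. ORC1 lost its call without FT_3, WT_1 or WT_2 (adjusted p 7.26e-04 to 0.072 over the libraries left out) and MCM8 without any library but FT_1 (0.00797 to 0.115). The count of lower licensing genes was 5 without FT_1 and at most 1 without any other library, and 6 with library totals alone.

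Among the 16 genes of initiation and the active fork, 11 were lower (13 without FT_1), with a median log2 fold change of -0.93. DBF4, which activates the CDC7 kinase, had an FPKM of 4.50, 4.08 and 4.63 (FT) against 11.4, 13.1 and 9.87 (WT), at log2 fold change -1.22 (standard error 0.13, edgeR adjusted p = 0.00169). GINS1 and GINS4, partners of the MCM ring in the active helicase, had 4.32, 5.48 and 5.85 and 1.18, 1.25 and 1.08 in FT cells, and 13.8, 15.4 and 11.1 and 2.99, 3.24 and 2.79 in WT cells. Both were lower by the same log2 fold change of -1.20 (edgeR adjusted p = 0.00408 and 0.0025). All FT values of DBF4, GINS1 and GINS4 lay below the WT values.

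Of 6 other factors that load, unload or bind the clamp, 2 were lower, and without FT_1 4 were lower and 1 higher. PCLAF, a small PCNA-binding protein, had an FPKM of 3.26, 5.94 and 5.68 (FT) against 41.3, 47.3 and 35.97 (WT), at log2 fold change -2.90 (standard error 0.27, edgeR adjusted p = 0.00125). All FT values were far below the WT range. ATAD5, which unloads PCNA, had 0.55, 0.54 and 0.71 (FT) against 1.15, 1.22 and 1.11 (WT), at log2 fold change -0.78 (standard error 0.18, edgeR adjusted p = 0.0169), a call lost without FT_2 or any of the WT libraries (0.00326 to 0.0691). The count of lower clamp factors was 1 without FT_2 or any of the WT libraries, 4 in DESeq2 and with library totals alone, 5 in limma on unscaled FPKM and 2 in limma on scaled FPKM.

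Of 11 genes for chromatin and DNA topology at the fork, 7 were lower, with or without FT_1. UHRF1, which directs maintenance methylation to new DNA, had an FPKM of 2.95, 3.93 and 4.68 (FT) against 10.8, 12.1 and 10.4 (WT), at log2 fold change -1.37 (standard error 0.19, edgeR adjusted p = 0.00341). The histone chaperone gene NASP had 16.1, 18.8 and 16.5 (FT) against 28.5, 34.3 and 27.9 (WT), at log2 fold change -0.66 (standard error 0.12, edgeR adjusted p = 0.00729). Topoisomerase TOP2A had 11.3, 21.7 and 23.3 (FT) against 49.6, 56.2 and 47.9 (WT), at log2 fold change -1.28 (standard error 0.29, edgeR adjusted p = 0.0174). All 3 were separate between groups. Leaving out any library but FT_1 lowered the count to 2 or 3 genes, and TOP2A lost its call without any of the WT libraries (adjusted p 1.73e-06 to 0.0666).

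Mitochondrial replication, which uses its own polymerase, had 3 of 8 tested genes lower and 2 higher, or 4 and 2 without FT_1. The nuclease gene MGME1 had an FPKM of 2.18, 2.13 and 1.83 (FT) against 4.64, 5.13 and 5.05 (WT), at log2 fold change -1.11 (standard error 0.13, edgeR adjusted p = 0.00207). POLRMT, the mitochondrial RNA polymerase that makes its primers, had 5.89, 4.12 and 4.19 (FT) against 2.98, 2.13 and 2.43 (WT), at log2 fold change 1.07 (standard error 0.19, edgeR adjusted p = 0.00823). PRIMPOL, a primase that restarts stalled forks, had 1.56, 2.17 and 2.70 (FT) against 4.97, 4.95 and 4.04 (WT), at log2 fold change -0.95 (standard error 0.24, edgeR adjusted p = 0.0252). The groups were separate for all 3, and PRIMPOL lost its call without FT_2 or any of the WT libraries (adjusted p 0.00168 to 0.0919). The count of lower genes was 1 without FT_2 or any of the WT libraries, and that of higher genes was 1 without any library but FT_1.

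The regulators of entry into S phase were mixed, with 8 of 30 genes lower, 6 higher and 16 not called, or 12 lower and 8 higher without FT_1. RBL2, a relative of the retinoblastoma protein, had an FPKM of 15.9, 16.5 and 16.5 (FT) against 13.01, 11.2 and 12.3 (WT), at log2 fold change 0.58 (standard error 0.08, edgeR adjusted p = 0.00367). E2F4, an E2F factor that acts mostly as a repressor, had 26.1, 21.4 and 21.5 (FT) against 16.5, 17.8 and 14.7 (WT), at log2 fold change 0.65 (standard error 0.11, edgeR adjusted p = 0.00725). The kinase gene CDK4 had 44.2, 49.9 and 48.8 (FT) against 75.04, 78.95 and 69.8 (WT), at log2 fold change -0.49 (standard error 0.09, edgeR adjusted p = 0.00929). RBL2 and E2F4 were higher, and CDK4 lower, in every FT library. The list pools activators and inhibitors, so its counts do not give a direction of regulation. The inhibitor genes CDKN2B and CDKN2C were also called lower (log2 fold change -1.81 and -1.25), and CCND3 and CDK6 higher (0.97 and 0.47). Each of these calls was lost without any of the WT libraries. Leaving out any library but FT_1 gave 2 or 3 lower genes, leaving out any of the WT libraries gave 2 or 3 higher genes, and library totals alone gave 9 and 3.

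Some of these regulators set FT_1 apart, and they are named here after their values were seen. E2F1, an activator of replication genes, stood at 2.11 FPKM in FT_1 against 5.62 and 6.81 in FT_2 and FT_3, with 6.86, 6.54 and 6.27 in the WT libraries. The inhibitor gene CDKN1C had 38.1 (FT_1), 2.37 (FT_2) and 1.53 (FT_3), and 1.52, 1.11 and 1.37 in WT cells. Cyclin D1 (CCND1) had 101, 42.7 and 43.8 (FT) against 133, 131 and 141 (WT). None of the 3 was called by edgeR with all 6 libraries, while CCND1 was called lower without FT_1 (adjusted p 4.15e-08 to 0.173 over the libraries left out) and CDKN1C higher without FT_1 or without FT_3 (0.0268 to 0.214). FT_1 was the low library for E2F1 and the high FT library for CDKN1C and CCND1. The part of these regulators in the level of the replication genes was not tested.

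All 10 proliferation markers were called lower, the median of their log2 fold changes being -1.57, and at least 8 were with any library left out. TOP2A is on this list as well as on that of chromatin and DNA topology at the fork. CDK1, the kinase of mitotic entry, had an FPKM of 4.02, 4.14 and 3.57 (FT) against 13.4, 14.9 and 12.2 (WT), at log2 fold change -1.63 (standard error 0.11, edgeR adjusted p = 6.8e-04). Its partner cyclin B1 (CCNB1) had 8.20, 13.8 and 12.1 (FT) against 73.98, 91.7 and 73.7 (WT), at log2 fold change -2.65 (standard error 0.23, edgeR adjusted p = 0.00105). The mitotic kinase gene AURKB had 4.95, 5.85 and 6.38 (FT) against 15.6, 17.3 and 15 (WT), at log2 fold change -1.32 (standard error 0.13, edgeR adjusted p = 0.00146). In each of them the highest FT library was below the lowest WT library. The median of these markers was further from 0 than that of the replication members, and their part in the members' difference was not tested.

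**Figure D5:**
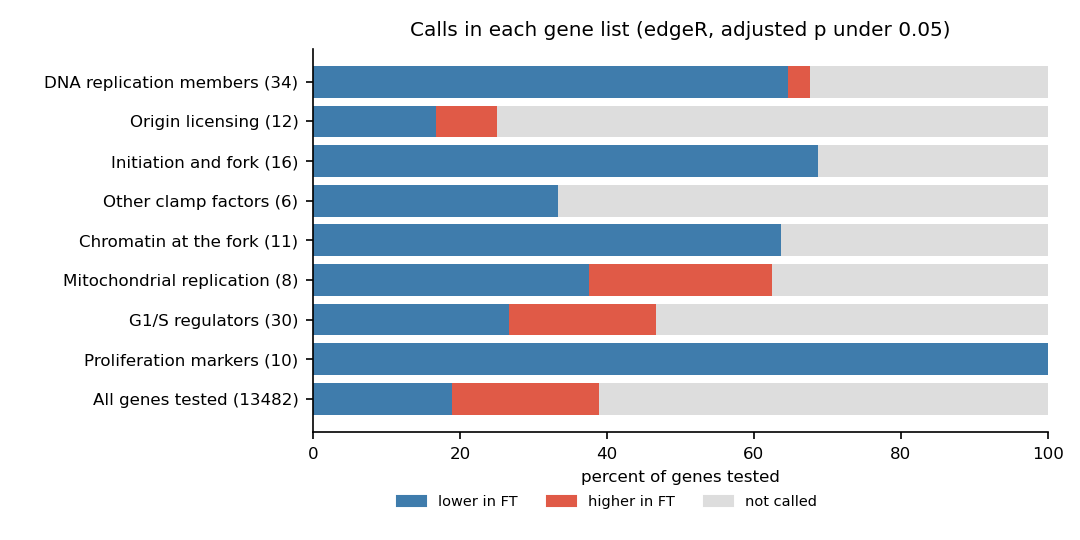
Percent of the tested genes of each list (number in brackets) that edgeR called lower (blue) or higher (red) in FT cells at an adjusted p under 0.05, with all genes tested as the last bar. Lower genes make up 64.7% of the replication members and all 10 proliferation markers, against 18.9% of all genes tested. TOP2A is counted both in the chromatin list and in the proliferation markers.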

How the data were processed

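RNA was measured in bEFs of 3 FT and 3 WT fetuses, 1 library each. The authors aligned the reads with HISAT and estimated levels with StringTie and edgeR, and the submitters' processing notes name Bowtie 0.12.2, HISAT2 2.0 and StringTie 1.3.0. The genome build named in the submitters' notes is a mouse build, whereas the gene identifiers are bovine. The bovine build and annotation are not given in the sources used here, so coordinates are those of the authors' table. The values are the raw counts and the FPKM per gene and library as the authors deposited them in that table. Whether counting used strand, and how reads of overlapping genes were split, is not given in the sources used here.

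The counts were tested with edgeR 4.0.16 in R 4.3.3 (TMM scaling, filterByExpr, robust quasi-likelihood fit), with Benjamini-Hochberg adjusted p-values from edgeR over all 13482 genes tested. A standard error is the log2 fold change divided by the root of its F statistic. Alternatives were DESeq2 1.42.0, limma 3.58.1 on log2(FPKM + 1) above a mean FPKM of 0.5, other scalings and filters, a trend on relative gene length (count over FPKM) removed by offsets, a replicate block, and each library left out. The scripts were tested on simulated counts.

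Per-library values are given for the called members with the 20 smallest p-values, the member with the smallest p of each complex, the 3 largest rises and falls, and, in each other list, up to 3 called genes ranked by p. Marker lists were fibroblast, epithelial, endothelial, leukocyte, erythroid, myogenic, chondrogenic, smooth muscle, mesothelial and neural. The members and lists were chosen with earlier results of these data known.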

Additional observations from a re-analysis of the deposited data

How the results depend on the processing

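The direction of the 23 called members was the same under every alternative run. The number of members lower in FT cells, 22 with edgeR, was 21 to 25 under the other scalings, filters, tests and the length correction, 11 at an adjusted p under 0.01 and 9 with an absolute log2 fold change over 1 added, and 13 to 24 with 1 library left out. The number higher, 1, was 2 in DESeq2 and at an adjusted p under 0.10, 0 with the added fold threshold, and 1 to 3 with 1 library left out. Over all genes, 2544 were lower and 2696 higher, against 1347 and 1387 at an adjusted p under 0.01, 1011 and 1113 with the added fold threshold, and 1504 to 4335 and 1499 to 4208 with 1 library left out. Apart from the stricter thresholds, the cause of these changes was not tested. Leaving out FT_1 raised the counts over all genes to 4335 and 4208, and leaving out any other library lowered them.

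The median of the members, -0.78, was -0.94 with library totals alone, -0.90 in limma on log2(FPKM + 0.1) and -0.64 in limma on median-ratio scaled FPKM, and -0.81 to -0.68 with 1 library left out. Library totals moved the median of all genes from 0.03 to -0.12, and relative to it the members stood at -0.82 under both scalings. The share of higher among called genes, 51.5%, was 37.5% with library totals and 34% in limma on log2(FPKM + 1).

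Members near 0 changed sign, and none was called in a fit that reversed it. POLE, POLD1 and POLD3 were at -0.18, -0.05 and -0.07 with the length trend removed. POLE, POLD1, POLD3 and POLD4 were at -0.05, -0.11, -0.12 and -0.02 with library totals, -0.05, -0.10, -0.11 and -0.03 in limma on log2(FPKM + 1), and -0.09, -0.11, -0.13 and -0.03 on log2(FPKM + 0.1). With 1 library left out, POLE ranged from -0.04 to 0.30 (called at 0.30, without FT_1), POLD1 from -0.04 to 0.13 and POLD3 from -0.04 to 0.09.

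With the replicate number as a block, 17 members were lower and 1 higher, and 1735 and 1828 of all genes. The deviations of same-numbered libraries from their group means had correlations of 0.0021, -0.0183 and 0.0144. Because FT_1 lay far from FT_2 and FT_3 and dominates the FT deviations, these correlations cannot decide whether the numbers pair cultures. The low counts of DNA2 and POLE2 and 3 libraries per group limit the precision of small differences.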
